A study of Homo sapiens with 40 samples.

Results

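Binding sites of CTCF were compared between A549 cells carrying a SETDB1 knockout (KO) and control A549 cells. The sites are the 58294 CTCF ChIP-seq peaks on chromosomes 1 to 22 and X in the deposited lists of the 2 genotypes, out of 614484 peaks in all 10 peak lists of the series. The control list held 23875 of them and the KO list 34419, and 28 control and 55 KO peaks on other sequences were left out. A control peak was called kept if it shared 1 bp or more with a KO peak, otherwise lost. A KO peak without a control peak was called new. Kept sites, 13331 in the control list and 13297 in the KO list, are the reference for all comparisons.

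A549 is an established lung adenocarcinoma line, and SETDB1 is an enzyme that methylates lysine 9 of histone H3, giving H3K9me3 in silenced regions. The gene was disrupted with Cas9 and a guide carried on the PX458 plasmid. Whether the KO line is 1 clone, and whether control cells received a plasmid, is not given in the sources used here. The 40 samples comprised 2 CTCF libraries per genotype, 2 per histone mark and genotype, their inputs, 2 Hi-C libraries per genotype and 3 RNA-seq libraries per genotype, and no other group exists. CTCF chromatin was sonicated, while histone chromatin was cut with MNase. A single peak list per target and genotype was used, so site classes have no replicate check. The intervals below are 95% binomial intervals (Wilson for a share, Newcombe for a difference of 2 shares) and cover counting error only. The lists hold positions on GRCh37 (hg19) and no scores, and the depth of the ChIP-seq libraries is unknown.

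CTCF is a zinc finger protein that binds a long DNA motif and, with the ring-shaped cohesin complex, halts loop extrusion, so that bound sites are common at the edges of topologically associating domains (TADs). Its binding is hindered by DNA methylation in the motif. Many sites lie near promoters, which carry H3K4me3 and H3K27ac when active. H3K27me3 and H3K9me3 mark repressed chromatin. Hi-C also divides chromosomes into an A compartment, gene-rich and active, and a B compartment, gene-poor and mostly silent.

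In the KO list 61.4% of CTCF peaks were new (60.9 to 61.9), and 44.2% of control peaks were lost (43.5 to 44.8), which left 55.8% of the control list and 38.6% of the KO list kept. Lost sites lay mainly in the B compartment and seldom overlapped promoter marks, and fewer of them than of kept sites were near TAD edges. New sites were spread over both compartments more evenly than kept or lost sites, with 8.47 per Mb in bins that were A in both genotypes and 7.24 in bins that were B in both. New sites outnumbered lost ones, with 21122 against 10544. In a bulk population, a site bound in fewer cells and a site bound less in each cell cannot be told apart, nor can fewer cells of a type and less RNA per cell.

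Peak widths differed between the classes. The median width was 258 bp at kept control peaks and 228 bp at lost peaks, and 355 bp at kept KO peaks and 260 bp at new peaks. The narrowest peak was 182 bp in the control list and 202 bp in the KO list. Within 20 bp of that minimum lay 14.8% of kept control peaks, 27.5% of lost peaks, 3.92% of kept KO peaks and 20.7% of new peaks. The share of control peaks kept went from 40.4% in the narrowest of 5 equal width groups to 72.5% in the widest, and that of KO peaks from 11.4% to 72.0%. Thus narrow peaks were kept less often in both lists, yet 1312 of the 4775 widest control peaks were still lost. Of 13254 kept sites that paired one to one, 82.6% were wider in KO (81.9 to 83.2), with a median centre offset of 28 bp. Widths of the 2 lists also differ in their minimum, and the part of peak calling in these widths was not tested.

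Lost and new sites were separate places rather than shifted copies of kept ones. Only 1.21% of lost and 0.914% of new sites had a peak of the other genotype within 500 bp. The median distance to the nearest kept site was 136 kb for lost and 72.1 kb for new sites, and 8.21% of lost and 13.3% of new sites were within 10 kb of one. Median spacing to the nearest site of the same class was 30.9 kb for kept, 45.3 kb for lost and 34.1 kb for new sites. Spacing depends on class size, which was 13331, 10544 and 21122 sites, so these medians do not compare clustering.

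Compartments came from the deposited signed Hi-C score of 100 kb bins, with A taken as a positive and B as a negative control score. Kept control sites were in A for 80.5% (79.8 to 81.2), new sites for 60.0% (59.3 to 60.7) and lost sites for 31.5% (30.6 to 32.4), whereas 55.2% of all 26496 bins were A. The difference from kept sites of the same list was -49.0 percentage points for lost sites (-50.1 to -47.8) and -20.5 points for new sites (-21.4 to -19.5). The median control score was 0.613 at kept, 0.265 at new and -0.554 at lost sites. Each of the 2 control Hi-C libraries alone placed 31.7% and 31.5% of lost sites in A. The A share of lost sites was 36.2% in the narrowest and 25.9% in the widest of 5 groups of control peaks, so lost sites of every width class were mostly in B.

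The bins were then ranked by control score in 10 equal groups. Lost sites went from 8.86 per Mb in the lowest group, the most B-like, to 2.06 per Mb in the highest. Kept sites ran the other way, from 0.762 to 9.20 per Mb. New sites were nearly level, at 7.74 per Mb in the lowest group, 6.34 in the third and 8.95 in the highest. In the lowest group 92.1% of control peaks were lost (91.0 to 93.1) and 91.0% of KO peaks were new (89.8 to 92.1). Both lists thus had over 7 peaks per Mb there, almost none of them at the same place. In the highest group 18.3% of control peaks were lost (17.0 to 19.8) and 49.4% of KO peaks were new (48.01 to 50.8).

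**Figure D1:**
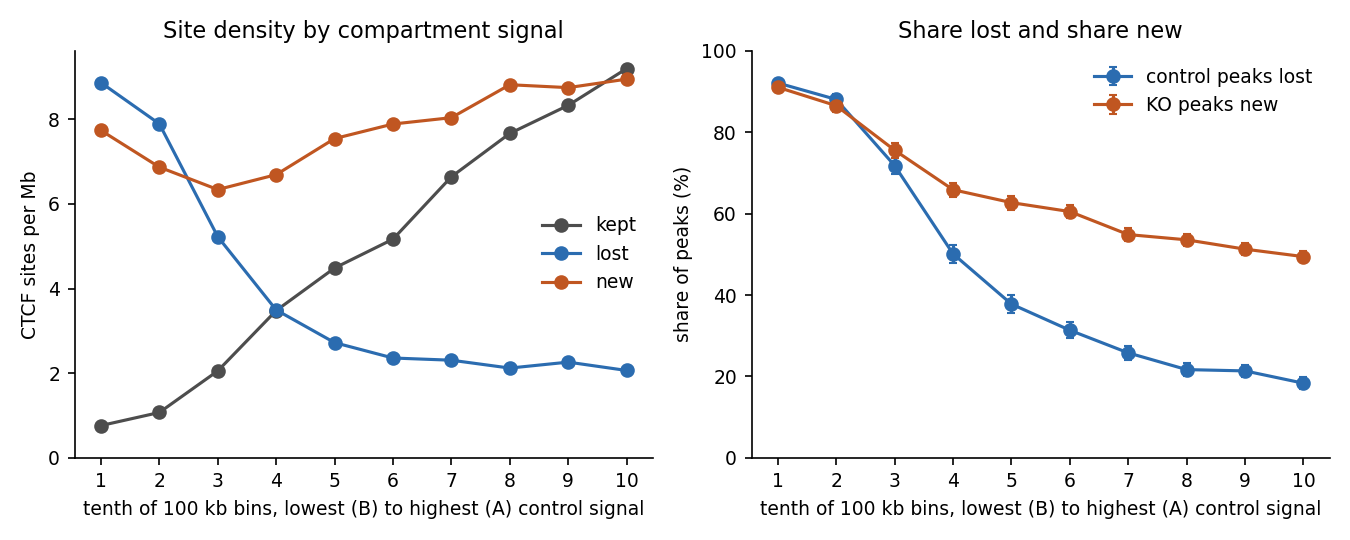
Left, kept, lost and new CTCF sites per Mb (y axis) in 10 equal groups of 100 kb bins ordered by control Hi-C score (x axis, lowest B to highest A). Right, the percentage of control peaks lost and of KO peaks new in the same groups, with 95% Wilson intervals. Lost sites go from 8.86 to 2.06 per Mb and kept sites from 0.762 to 9.20 per Mb, while new sites stay between 6.34 and 8.95 per Mb.

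Bins were also split by the sign of the score in both genotypes. In the 13064 bins that were A in both, 22.9% of control peaks were lost and new sites outnumbered lost ones 3.87 to 1. In the 10308 bins that were B in both, 74.2% were lost and the ratio was 1.15. The 1573 bins that went from A to B lost 35.5% of their control peaks, with a ratio of 3.00, and the 1551 bins that went from B to A lost 70.4%, with a ratio of 1.24. Bins that switched compartment therefore sat nearer, in both measures, to the compartment they had in control cells. Bins from B to A held 618 lost and 769 new sites, or 1.17 KO peaks per control peak, against 1.71 in bins from A to B.

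Score changes were tested with limma over the 2 Hi-C libraries per genotype. Of 26496 bins, 58.8% passed a Benjamini-Hochberg adjusted p of 0.05, 21.6% higher and 37.3% lower in KO. Of the 7140 bins with a lost site 22.4% were higher and 37.5% lower, close to all bins. Of the 12935 bins with a new site 18.8% were higher and 37.9% lower, and of the 8040 bins with a kept site 15.3% and 35.5%. Bins with 3 or more lost sites, 695 in number, were higher in 27.2% (24.0 to 30.6) and lower in 31.2% (27.9 to 34.8). Bins with 3 or more new sites, 1746 in number, were higher in 14.7% (13.1 to 16.4) and lower in 40.8% (38.5 to 43.1). Bins without any CTCF peak were higher in 25.4% and lower in 37.5%. The labels do not say whether libraries came from separate cultures, so these p-values measure the spread between libraries, which may be technical.

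Histone marks separated the classes further. H3K4me3 overlapped 39.5% of kept control peaks but 2.06% of lost peaks in control cells, a difference of -37.4 points (-38.3 to -36.6). H3K27ac, found at active promoters and enhancers, overlapped 23.5% and 1.74%, a difference of -21.8 points (-22.5 to -21.0). Both marks together lay on 18.6% of kept and 0.654% of lost peaks. H3K27me3 overlapped 4.52% of kept and 15.5% of lost peaks, a difference of 10.9 points (10.2 to 11.7), and H3K9me3 4.23% and 26.7%, a difference of 22.5 points (21.6 to 23.4). In bins with a Hi-C score, control H3K27me3 covered 13.7% of the length and held 14.6% of lost and 3.49% of kept site centres. Over all scored bins, the H3K27me3 difference thus lay mostly in the low share at kept sites. Within A alone, lost sites were also above the length, at 12.6% of centres against 8.84%. Within B they were below it, at 15.5% against 19.7%. H3K9me3 with no other mark lay on 22.2% of lost and 2.73% of kept peaks. None of the 4 marks lay on 59.4% of lost and 49.3% of kept peaks.

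For each of the 4 marks, compared in the site's own genotype, new sites stood between kept and lost sites. In KO cells H3K4me3 overlapped 19.0% of new and 37.5% of kept KO peaks, a difference of -18.5 points (-19.5 to -17.5). H3K27ac overlapped 13.8% and 23.3%, a difference of -9.56 points (-10.4 to -8.70). H3K9me3 overlapped 22.3% of new and 2.35% of kept KO peaks, a difference of 19.98 points (19.4 to 20.6), and H3K27me3 9.58% and 6.14%, a difference of 3.45 points (2.87 to 4.01). The share without any mark was not between them, at 49.0% of new and 51.4% of kept KO peaks, a difference of -2.42 points (-3.51 to -1.34). New sites with H3K4me3 in KO mostly had it in control cells as well: 16.3% of new sites had H3K4me3 in both genotypes, 2.69% in KO only and 2.03% in control only. With the wider 50% of each list the differences at new sites were smaller, at -11.4 points for H3K4me3, -4.64 for H3K27ac, 12.3 for H3K9me3 and 2.17 for H3K27me3. With at least 50% of the site inside a mark, the H3K27ac difference at new sites was -5.53 points, and the difference without any mark was 6.16 points for lost and -6.13 for new sites.

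The mark lists of the other genotype gave a different picture for H3K9me3. In KO cells H3K9me3 peaks covered 47.6% of the places where a control CTCF peak was lost, 45.2 points above kept sites. Of all lost sites 30.3% had H3K9me3 in KO only, 9.47% in control only, 17.2% in both and 43.0% in neither. Of new sites 14.9% had it in KO only, 8.50% in control only and 7.43% in both. H3K9me3 peaks covered 12.4% of the length of scored bins in control and 23.2% in KO. Hence 47.4% of lost-site centres against 23.2% of the length lay under KO H3K9me3, while new-site centres, at 22.5%, were near the length itself. With the other genotype's lists H3K9me3 differed by 11.4 points at new sites and H3K27me3 by 6.39 at lost and 7.45 at new sites. The share without any mark changed sides with these lists, at -11.5 points for lost and 6.32 points for new sites.

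**Figure D2:**
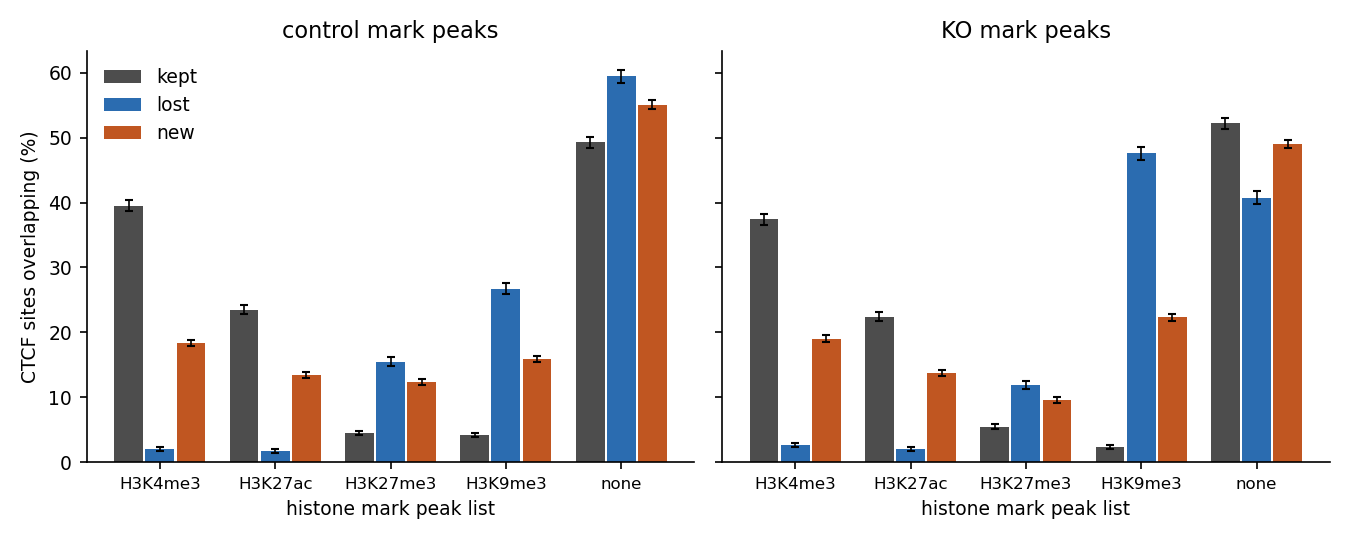
Percentage of kept (control list), lost and new CTCF sites (y axis) that overlap peaks of each histone mark or none of the 4 (x axis) by at least 1 bp, with control mark peaks on the left and KO mark peaks on the right. Bars are shares of sites with 95% Wilson intervals. Lost sites stand at 26.7% for control and 47.6% for KO H3K9me3, and at 2.06% for control H3K4me3 against 39.5% of kept sites.

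Within each compartment, site centres were compared with the length covered, and the H3K9me3 and H3K4me3 contrasts between kept and lost sites were present in both. In B, KO H3K9me3 peaks covered 49.2% of the length and held 67.5% of lost (66.4 to 68.6), 53.9% of new (52.8 to 55.0) and 11.7% of kept control sites (10.5 to 13.0). In control cells they covered 15.5% of B and held 31.2% of lost, 23.9% of new and 8.92% of kept sites. Kept sites in B thus lay outside H3K9me3 more than the length would give, and 23.1% of them lay in control H3K4me3, which covered only 0.843% of B. Lost sites in B lay in control H3K4me3 for 0.729%, near its coverage. In A, control H3K4me3 covered 5.92% and held 38.3% of kept and 3.81% of lost sites, and KO H3K4me3 covered 6.36% and held 34.8% of kept KO and 22.6% of new sites. KO H3K9me3 covered 2.13% of A and held 3.595% of lost, 1.60% of new and 0.0288% of kept sites (3 of 10419). KO H3K27me3 peaks in B held 10.3% of new (9.64 to 10.95), 9.85% of kept KO (8.74 to 11.1) and 9.48% of lost sites (8.82 to 10.2), all near the 10.9% of the length covered. Control H3K27me3 covered 19.7% of B and separated the classes. It held 19.8% of new, 15.5% of lost (14.7 to 16.3) and 11.5% of kept control sites (10.3 to 12.8). In A, control H3K27me3 covered 8.84% and held 5.90% of new, 12.6% of lost (11.5 to 13.7) and 1.55% of kept control sites. KO H3K27me3 covered 9.94% of A and held 7.27% of new, 15.0% of lost (13.8 to 16.3) and 2.58% of kept KO sites.

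H3K9me3 peaks of at least 100 kb, of which the KO list held 676, covered 3.56% of the chromosomes and contained 11.2% of lost sites (10.6 to 11.8), 5.48% of new sites (5.18 to 5.79) and 0.555% of kept sites. In the 5067 bins where H3K9me3 coverage was at least 50 points higher in KO, 87.4% of control peaks were lost and 87.9% of KO peaks were new, with 0.937 kept, 6.52 lost and 6.80 new sites per Mb. In the 338 bins where coverage was at least 50 points lower, 76.0% were lost (71.6 to 79.9) and 78.1% new, with 2.87 kept, 9.08 lost and 10.2 new sites per Mb. In the 13045 bins where it moved by under 10 points, 25.4% were lost and 53.7% new. The share lost was 77.5% where coverage was 10 to 50 points higher and 39.5% where it was 10 to 50 points lower. Lost and new sites were of nearly equal number at both ends, with 1.04 new per lost site where coverage was at least 50 points higher and 1.13 where it was at least 50 points lower. In control cells 98.3% of the bins with higher, 56.5% of those with lower and 23.3% of those with little-changed coverage were B, and compartment and H3K9me3 change cannot be told apart in these counts.

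TAD edges were taken from the deposited domain list of each genotype, which lies on a 20 kb grid. In the control list 32.4% of kept sites (31.6 to 33.2) and 8.95% of lost sites (8.42 to 9.51) lay within 20 kb of an edge, against 9.75% of the length. The length here is that of bins with a Hi-C score, while the shares count all sites. The median distance was 39.5 kb for kept and 186 kb for lost sites. In the KO list 32.3% of kept and 18.9% of new sites (18.4 to 19.5) lay within 20 kb, against 10.0% of the length, with medians of 40.04 and 81.8 kb. The differences from kept sites were -23.4 points for lost (-24.4 to -22.5) and -13.4 points for new sites (-14.3 to -12.4). Lost sites were thus no nearer to edges than the length would give, and new sites were nearer, though less so than kept ones. With the wider 50% of each list the difference at new sites was -7.86 points.

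Within A, 33.0% of kept and 17.7% of lost sites lay within 20 kb of a control edge, against 13.1% of the length, so lost sites in A were above the length there (16.5 to 19.1). Within B, 30.4% of kept and 4.78% of lost sites did, against 5.58% of the length. For KO edges, 23.7% of new sites in A and 11.8% of new sites in B lay within 20 kb, against 13.2% and 6.04% of the length. The share of kept sites near edges was thus similar in both compartments, while the length near edges was lower in B.

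**Figure D3:**
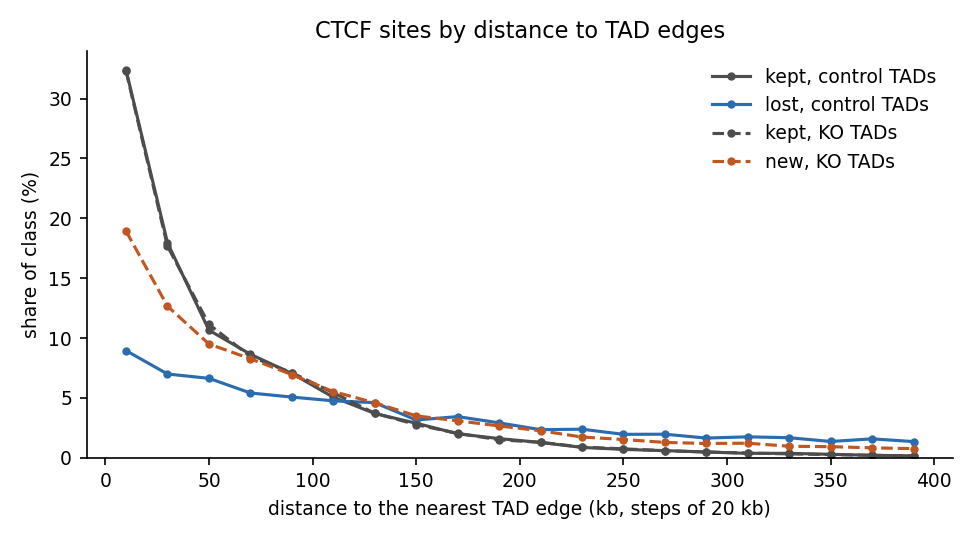
Percentage of each class of CTCF site (y axis) by distance to the nearest TAD edge in steps of 20 kb up to 400 kb (x axis), with control edges for kept and lost sites (solid) and KO edges for kept and new sites (dashed). In the first step stand 32.4% and 32.3% of kept, 18.9% of new and 8.95% of lost sites, and the lines of kept sites lie on each other.

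Edges themselves were sorted by the CTCF sites within 20 kb. Of 6624 control edges that had a KO edge within 20 kb, 43.4% held a kept site, 24.2% a new site and no kept one, 3.47% lost sites alone and 28.9% no CTCF peak of either genotype. Of 387 edges found in control only, 26.6% held a kept site (22.5 to 31.2), 20.7% a new site without a kept one, 5.94% lost sites alone (3.99 to 8.76) and 46.8% none. Of 536 edges found in KO only, 20.5% held a kept site (17.3 to 24.1), 34.1% a new site without a kept one (30.3 to 38.3), 5.04% lost sites alone and 40.3% none. Edges in a single genotype thus held a kept site less often than shared edges, and the share with a new site and no kept one was highest at edges found in KO only. A KO peak of either class lay near 54.7% of edges found in KO only and 67.5% of shared edges at their KO positions. The domain lists have no replicate either.

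Classes differed in number between chromosomes. The share of control peaks lost went from 4.76% on chromosome 22 to 63.7% on chromosome 2, with a median of 37.0% over 23 chromosomes. The share of KO peaks that were new went from 44.9% on chromosome 22 to 72.2% on chromosome 4. New sites outnumbered lost ones on every chromosome but 2, where 1742 sites were lost and 1212 new. The ratio of new to lost sites was highest on chromosome 22, with 13 lost and 211 new.

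Chromosomes 4, 6, 13, 18, 21, 22 and X were grouped, after their values were seen, by having under 1 lost site per Mb of B. They had 0.404 to 0.669, while the other 16 chromosomes had 3.32 to 18.8, and the grouping itself sets these ranges apart. These 7 chromosomes held 362 of the lost and 2820 of the new sites. Lost sites were also few in A there, which the grouping did not use, at 0.220 to 0.588 per Mb against 1.39 to 4.12 on the others. For the other classes the ranges overlap, with 2.41 to 9.52 kept sites per Mb of A against 5.02 to 21.8, and 0.863 to 5.00 new sites per Mb of B against 4.56 to 16.9. Chromosome 22 had the most kept sites of the 7, at 9.52 per Mb of A and 5.28 per Mb of B. New sites on all 7 were denser in A, at 4.28 to 7.37 per Mb, than in B of the same chromosome, for example 6.04 against 0.863 on chromosome 21 and 5.28 against 1.37 on X. The other 16 were mixed. Some had the same direction, such as chromosome 1 with 8.30 in A against 5.72 in B, and some the reverse, such as chromosome 15 with 11.3 against 15.5. The depth of the ChIP-seq libraries by chromosome is unknown, and its part in these counts was not tested. The log2 ratio of KO to control CTCF peaks was 0.78 to 1.40 on these 7 chromosomes and -0.31 to 0.96 on the others. Lost sites count among the control peaks of this ratio, so the grouping by few lost sites itself raises it.

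**Figure D4:**
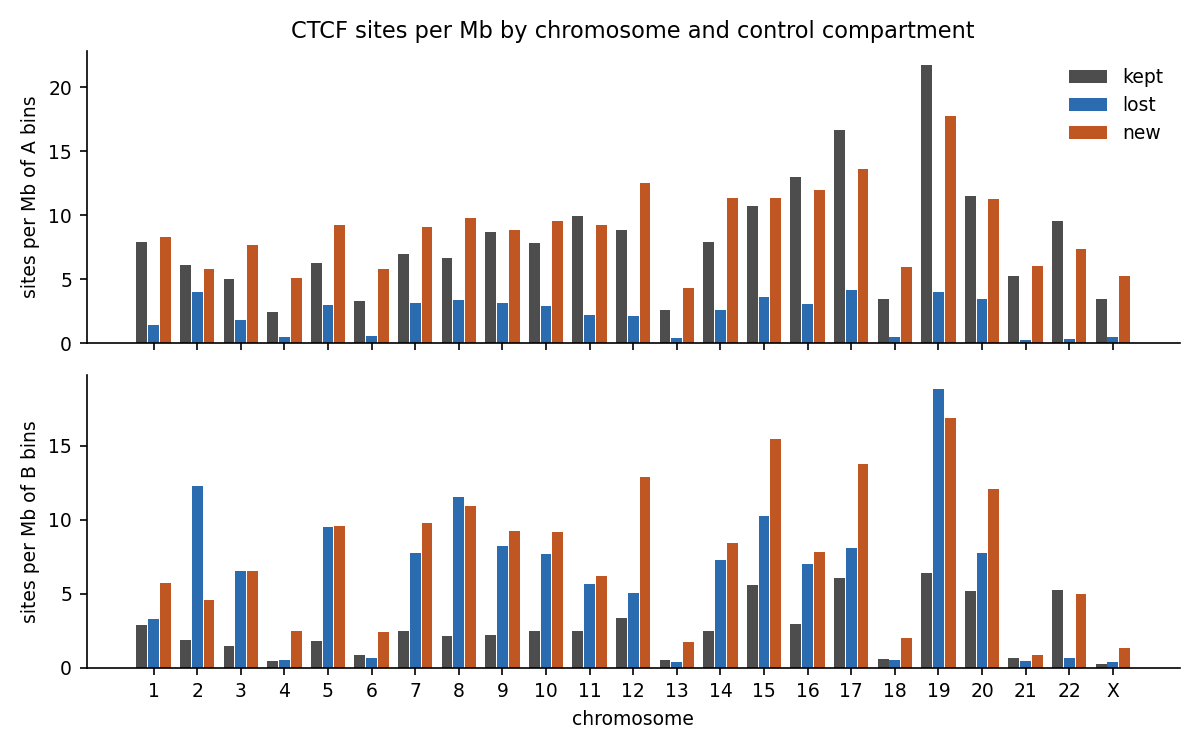
Kept, lost and new CTCF sites per Mb (y axis) of A bins (top) and of B bins (bottom) for each chromosome (x axis). Bars start at 0 and each is a single count over a length, with no replicate. In B, lost sites lie between 0.404 and 0.669 per Mb on chromosomes 4, 6, 13, 18, 21, 22 and X and between 3.32 and 18.8 per Mb on the other 16. These 7 chromosomes were grouped by this same value, at under 1 per Mb.

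Chromosomes differed in RNA as well. The median of tested genes by log2 fold change was -0.54 on chromosome 2, the lowest of 23, and 0.37 on chromosome 12, the highest, followed by 0.34 on chromosome 19 and 0.081 on chromosome 16. The log2 ratio of KO to control CTCF peaks was -0.31 on chromosome 2, again the lowest, 0.96 on chromosome 12, which ranked 17 of 23 from the lowest, and 0.43 on chromosome 19, which ranked 5. The same log2 ratio for H3K27ac peaks was -0.208 on chromosome 2, second to -0.214 on chromosome 17, and 0.28 on chromosome 12, and for H3K4me3 peaks 0.17 and 0.44. The part of DNA copy number in these counts was not tested. Without chromosomes 2 and 12, 58.0% of control peaks were kept, as against 55.8% with them.

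The directions of the class differences were nonetheless shared by nearly all chromosomes. Lost sites had a lower A share, a lower H3K4me3 share and a lower share near TAD edges than kept sites on 23 of 23 chromosomes. New sites had a lower A share and a lower share near edges on 23 of 23 and a lower H3K4me3 share on 21, the exceptions being chromosomes 21 and 22. The H3K9me3 share was higher than at kept sites on 22 chromosomes for lost and for new sites, and 0 in both classes on chromosome 22. On chromosome 19, which carries large clusters of zinc finger genes, 68.8% of lost sites overlapped H3K9me3 in control and 31.2% in KO, while over all chromosomes the share was 26.7% in control and 47.6% in KO.

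The sites were next examined where they were most dense. Of 13330 bins with a new site 150 had 5 or more, and of 7259 bins with a lost site 82 did. The bin with the most new sites was chr5:140700001-140800000, with 13 new and 1 kept site. It was followed by chr5:140200001-140300000 and chr5:140500001-140600000 with 9 new sites each, chr19:42100001-42200000 with 8 and chr5:7800001-7900000 with 7. In the last of these bins H3K4me3 covered 11.97% in control and 11.2% in KO, and in that of chromosome 19 it covered 0% and H3K27me3 78.3% and 87.1%.

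The bins with the most lost sites were chr2:34700001-34800000, chr3:80600001-80700000 and chr19:28600001-28700000, with 8 each, then chr2:13400001-13500000 and a bin of chromosome 8 with 7 each. All 5 had negative control scores, from -1.05 to -0.562. Neither H3K4me3 nor H3K27ac had a control peak in any of the 5. H3K9me3 covered 60.0% of the bin of chromosome 3 in control cells and 94.2% in KO cells, and 57.6% and 92.9% of chr2:13400001-13500000. The bin of chromosome 8 was the exception, with H3K9me3 coverage of 24.4% in control and 0% in KO and a score that went from -0.836 to 0.193.

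Sites of a class also followed each other in long runs. The longest run of consecutive control peaks that were all lost held 57 peaks in chr2:80178361-82484726, where KO cells had 19 peaks at other places. Runs of 56 in chr17:50023787-52945426 and 55 in chr2:51403252-53645058 followed, with 33 and 14 KO peaks. H3K9me3 covered 67.5% of the first in control cells and 56.3% in KO cells, 36.3% and 72.8% of the second, and 41.0% and 63.8% of the third. The longest run of consecutive KO peaks that were all new held 49 peaks in chr12:128195587-130148162, followed by 48 in chr7:144565782-147939779 and 40 on chromosome 8. H3K9me3 covered 49.5% of the first of these in control cells and 92.0% in KO cells, and 38.0% and 89.9% of the second. All 6 runs had negative median scores in both genotypes, from -0.267 to -0.953 in control.

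The stretch chr5:140100001-140900000, chosen after its values were seen because it holds the 3 bins with most new sites, had 45 new, 12 kept and 5 lost sites. The clustered protocadherin genes, which encode cell adhesion proteins of neurons and are a textbook case of promoter choice through CTCF and cohesin, are known to lie in this region. No gene annotation of the build was used, so sites were not assigned to promoters. Control H3K9me3 covered 73.0% of the 8 bins and overlapped 43 of the 45 new sites, and KO H3K9me3 covered 1.83% and overlapped 0. H3K4me3 covered 7.34% in control and 16.6% in KO, and overlapped 24 of the new sites in control and 38 in KO.

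Single sites show the types present there. The new site chr5:140220607-140221559, at 953 bp the widest, overlapped H3K4me3 in both genotypes and H3K9me3 in control alone. The new site chr5:140207459-140208250, of 792 bp, overlapped H3K4me3 in KO alone and H3K9me3 in control alone. The kept site chr5:140201709-140202028, of 320 bp in control and 481 bp in KO, overlapped H3K4me3 and H3K27ac in both genotypes and H3K9me3 in control alone. Of the 12 kept sites 10 overlapped H3K4me3 and 10 overlapped H3K9me3 in control. These are overlaps of at least 1 bp between lists from bulk cells. They do not show whether CTCF and the marks lay on the same DNA copies. The lost site chr5:140237633-140237929, of 297 bp, overlapped H3K9me3 in control and no H3K4me3 in either genotype, like 2 other lost sites of the stretch.

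The Hi-C score of the 8 bins was low in control and high in KO. In the bin with 13 new sites the control libraries read 0.0797 and 0.0359 and the KO libraries 1.15 and 1.28. Over the 8 bins, control libraries lay between -0.403 and 0.576 and KO libraries between 1.02 and 1.37. Among all bins 21.6% were higher in KO by limma.

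**Figure D5:**
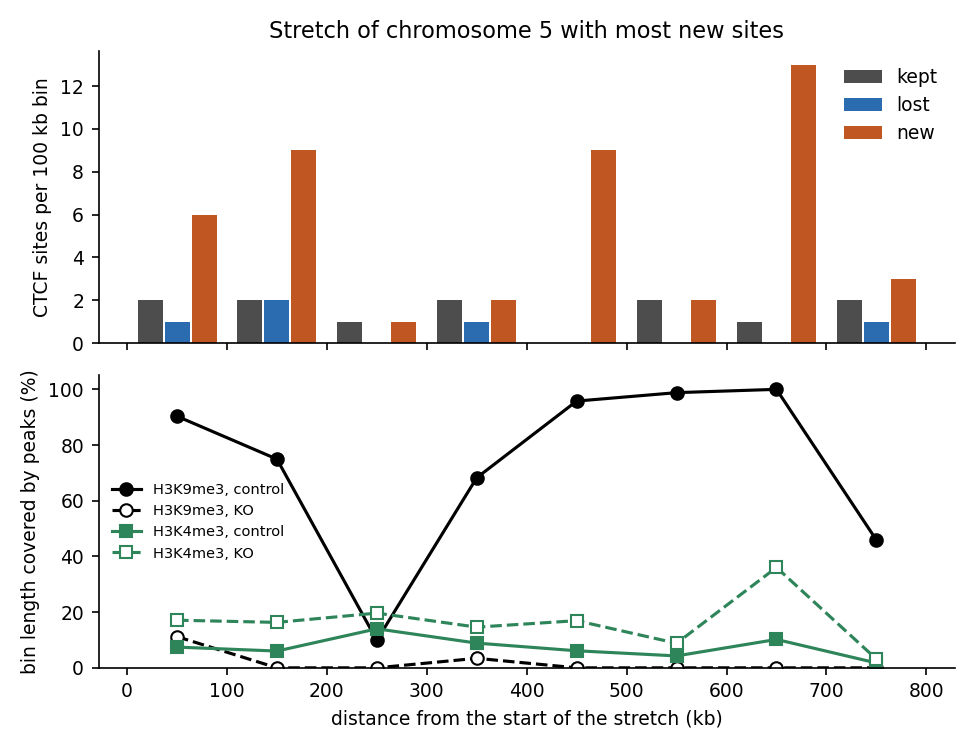
Top, kept, lost and new CTCF sites (y axis, sites per 100 kb bin) along a stretch of 8 bins on chromosome 5 (x axis, kb from its start). Bottom, the percentage of each bin covered by H3K9me3 and H3K4me3 peaks in control (filled, solid) and KO (open, dashed). New sites peak at 13 in the bin where H3K9me3 covers 100% in control and 0% in KO.

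RNA-seq libraries held 18065062 to 48364919 counts, and of 17767 tested genes 62.8% passed edgeR's quasi-likelihood test at a Benjamini-Hochberg adjusted p of 0.05, 32.8% higher and 30.0% lower in KO. Upper quartile scaling turned this balance, with 5432 genes higher and 5802 lower. SETDB1 read 37.5, 39.6 and 38.7 CPM (counts scaled to library size) in control and 23.4, 21.2 and 21.1 CPM in KO, or -0.82 on the log2 scale (SE 0.060), with an edgeR adjusted p of 1.7e-12. Its transcript was therefore lower in every KO library but present. The epithelial markers EPCAM, KRT8, KRT18, KRT19 and CDH1 were detected in every library and passed the test as higher in KO. Of the 4 genes known for high levels in this line, NQO1 (-0.14), AKR1B10 (-0.87) and AKR1C1 (-1.54) passed as lower and ALDH1A1 (0.37) as higher, given as log2 fold changes, and CDKN2A, known to be deleted in A549, had 0 counts. Of 5 measured markers of other cell types, CD3E and DCN were at 0, PTPRC had at most 1 count per library, COL1A1 read 3.10 CPM in control and 3.83 in KO, and the endothelial CDH5 read 0.289 and 4.53 CPM. The part of any change in cell state in the CTCF lists was not tested.

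Genes of CTCF and its partners were compared in the same fit, as a list of 19 of which 18 were tested. Of these 3 were higher, 9 lower and 6 did not pass, and none differed by 2-fold or more. Over all tested genes 62.8% passed, 32.8% as higher and 30.0% as lower. The median log2 fold change was -0.14, as against 0.0038 over all tested genes. The genotypes did not overlap for 13 of the 18, as against 65.8% of all tested genes.

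CTCF itself read 89.5, 86.6 and 85.0 CPM in control and 95.8, 96.8 and 94.4 CPM in KO. The 3 KO libraries lay above the 3 control libraries, by 0.14 on the log2 scale (SE 0.045), with an edgeR adjusted p of 0.0087. Without the third control library the value was 0.12 and the edgeR adjusted p 0.06, so the gene did not pass there. Leaving out any other single library gave an edgeR adjusted p of 0.0029 to 0.034. Its germline paralog CTCFL was not tested, with counts of 1, 1 and 0 in control and 0 in KO.

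Of the cohesin ring, SMC3 read 178, 165 and 163 CPM in control and 97.3, 94.5 and 96.4 CPM in KO, with no overlap and a log2 change of -0.81 (SE 0.045), with an edgeR adjusted p of 3.7e-15. RAD21, which closes the ring, read 296, 285 and 292 CPM in control and 246, 238 and 244 CPM in KO. The log2 fold change was -0.27 for RAD21, -0.19 for SMC1A and -0.23 for STAG2, and all 3 passed. STAG1, the alternative cohesin subunit to STAG2, read 54.6 ± 0.773 CPM in control and 53.9 ± 0.957 CPM in KO (SD, n = 3), with overlapping groups. SMC3 was the member furthest from 0 in this list.

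Among regulators of cohesin, the acetyltransferase ESCO2 fell from 78.5 ± 2.01 to 51.9 ± 0.919 CPM (SD, n = 3), a log2 fold change of -0.60, and CDCA5 (sororin, which protects cohesion) from 77.1 ± 3.66 to 54.7 ± 2.63 CPM, or -0.49. HDAC8, which removes the acetyl group from SMC3, changed by -0.47 on the log2 scale, WAPL, the release factor, by -0.22 and PDS5B, which works with WAPL, by -0.20. ESCO2 and CDCA5 are known to be expressed mainly in S phase and G2. The loader subunit MAU2 was higher, at 0.27, while its partner NIPBL did not pass, at -0.086. ESCO1 and PDS5A did not pass either, at 0.063 and -0.069. Of the other DNA-binding factors listed, MAZ rose from 14.1 ± 1.27 to 19.4 ± 1.81 CPM (SD, n = 3), a log2 fold change of 0.48, and ZNF143 and YY1 did not pass, at -0.087 and 0.072.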

How the data were processed

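CTCF peaks on chromosomes 1 to 22 and X were compared between control and SETDB1 KO A549 cells. The authors deposited peak and TAD lists with 3 columns (chromosome, start, end), no score, and 1 list per genotype; any pooling of libraries or threshold is not given in the sources used here. The submitters' processing notes name STAR 2.6.1c, edgeR 3.30.0, Bowtie2 2.2.3, SAMtools 1.5, Picard, MACS2 and hg19, with no roles. Compartment values are a signed score per 100 kb bin, deposited per replicate and per genotype, whose method is not stated. The deposited gene table holds raw whole-number counts of reads; libraries were of total RNA and stranded, per the labels; the counter's strand setting is not stated. The KO H3K4me3 libraries carry a mark label lacking a digit and were grouped as H3K4me3. Samples were grouped by their labels, and no sample column was left unmapped (0 columns). Input libraries were not used here.

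Overlaps needed 1 bp, sites took the compartment of their bin, and H3K9me3 coverage was the share of a bin under peaks, with numpy 2.4.6, pandas 2.3.3 and statsmodels 0.14.6 in Python 3.11.15. Lost sites were set against control marks and TADs, new sites against those of KO. Bins were tested with limma 3.58.1 and counts with edgeR 4.0.16 (TMM, filterByExpr, quasi-likelihood F-test, CPM on TMM-scaled totals) in R 4.3.3, fitting control and KO libraries only, with Benjamini-Hochberg adjustment at 0.05 over all bins or genes. Fits and overlaps were tested on simulated data. A RefSeq table (GRCh38.p14) placed 88.6% of tested genes on chromosomes, by symbol. Gene names matched 93.8% of 62486 IDs. The text names SETDB1, all members of the CTCF and cohesin list, the 5 bins with most lost and with most new sites, and the 3 longest runs of each. The members and lists were chosen with earlier results of these data known. Alternatives were other overlap, width, distance and compartment rules, other scalings, filters and tests (DESeq2 1.42.0), a replicate block, and leaving out each replicate. A genome of the files' build was not used here, so no site sequences, motifs or nearby genes are given.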

Additional observations from a re-analysis of the deposited data

How the results depend on the processing

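Of 166 alternative values of the shares and differences of CTCF sites, 99 stayed within counting error, 65 moved with the same sign and 2 reversed. The peak and TAD lists allow no replicate check, and their depth is unknown, so an absent peak is not an absent site. The cause of these moves was not tested.

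With the compartment sign in KO the A difference was -43.3 points for lost and -19.0 for new sites, with KO Hi-C library 1 alone -43.6 and -19.1, with library 2 alone -43.4 and -19.0, and without the bins of weakest score -53.1 and -22.7. With reciprocal overlap of 50%, 50.4% of control and 34.9% of KO peaks were kept, and differences for lost sites were -44.1 (A), -32.4 (H3K4me3), -18.9 (H3K27ac), 9.72 (H3K27me3), 20.8 (H3K9me3), 7.64 (no mark) and -21.2 points (TAD edge), and for new sites -16.9 (H3K4me3) and 19.2 (H3K9me3). A partner within 500 bp kept 39.2% of KO peaks.

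With the KO list cut to the length of the control list, 49.8% of control and 49.7% of KO peaks were kept, with -46.5 (A), 20.2 (H3K9me3), 12.1 (no mark) and -21.1 points (TAD edge) for lost and 18.9 (H3K9me3) and -12.3 (TAD edge) for new sites. With the wider 50% of each list 55.2% of control peaks were kept, with -46.9 (A), 9.34 (H3K27me3), 19.7 (H3K9me3), 12.8 (no mark) and -20.1 (TAD edge) for lost and -14.1 (A), -11.4 (H3K4me3), -4.64 (H3K27ac), 2.17 (H3K27me3), 12.3 (H3K9me3) and -7.86 (TAD edge) for new sites.

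With at least 50% of the site inside a mark, lost sites differed by -33.6 (H3K4me3), -16.9 (H3K27ac) and 6.16 (no mark) and new sites by -16.3, -5.53 and -6.13, with 4.47 for H3K27me3. With the other genotype's marks, lost sites differed by -34.7 (H3K4me3), -20.4 (H3K27ac), 6.39 (H3K27me3) and 45.2 (H3K9me3) and new sites by -21.2, -10.7, 7.45 and 11.4; the difference without any mark reversed to -11.5 for lost and 6.32 for new sites. Within 10 kb of a TAD edge the differences were -12.4 and -6.83, and within 40 kb -34.4 and -18.4. Without chromosomes 2 and 12, 58.0% of control peaks were kept. Without the 7 chromosomes with few lost sites, an alternative added after seeing the data, 53.6% were kept and new sites differed by -22.2 (A), -20.3 (H3K4me3), -10.6 (H3K27ac) and 22.6 points (H3K9me3).

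Leaving out one Hi-C library at a time gave 4568 to 5730 bins higher and 8017 to 9688 lower, as against 5711 and 9872. Leaving out one RNA-seq library gave 10174 to 11085 changed genes, as against 11157, and 2 to 3 higher and 9 lower members of the CTCF and cohesin list. With the replicate number as a block, 5869 bins were higher and 10104 lower, and 6060 genes were higher and 5595 lower; same-numbered libraries were not taken as paired, since their deviations correlated at -0.0018 for Hi-C and 0.112, 0.0638 and 0.0465 for RNA-seq, and no call in the list changed. Genes higher and lower numbered 5432 and 5802 with upper quartile scaling, 6133 and 4876 with library size only, 5185 and 4574 with DESeq2 and 6852 and 5136 without the filter, as against 5825 and 5332. STAG1 changed sign, to 0.011 with library size only and 0.019 without the filter. NIPBL (-0.12) and PDS5A (-0.10) passed under upper quartile scaling, with edgeR adjusted p of 0.039 and 0.032, and YY1 (0.10) with library size only, at 0.049.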
